A study of Raphidocelis subcapitata with 493 samples.

Results

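Perfluorotridecanoic acid (PFTrDA, 13 carbons) and perfluorotetradecanoic acid (PFTeDA, 14 carbons), both among 22 per- and polyfluoroalkyl substances of the series, are long-chain perfluorinated carboxylic acids that differ by 1 carbon of the chain. The libraries described here were those whose labels name either acid, 21 with PFTrDA and 21 with PFTeDA, together 42 of the 493 libraries of the series. Every library came from cultures of the unicellular freshwater green alga Raphidocelis subcapitata in exponential growth, exposed for 24 h in wells that held 0.33% solvent. PFTrDA was given at nominal concentrations of 0.005, 0.02, 0.05, 0.2, 0.5, 1 and 5 µM, with 3 libraries each, against 3 control libraries labelled DMSO of the same exposure. PFTeDA was given at 0.1, 0.3, 1, 3, 10, 32 and 100 µM, with 3 libraries each, against 3 other control libraries labelled DMSO of its own exposure. In the description of the series either DMSO or methanol served as solvent, and no methanol control was analysed here. The PFTrDA exposure also held perfluorononanoic acid (PFNA, 9 carbons) and the PFTeDA exposure perfluoroundecanoic acid (PFUdA, 11 carbons), so each acid shared its control libraries with that second acid. RNA was extracted from pooled homogenates, and whether the 3 libraries of a group stem from separate cultures is not said in the labels. All p-values therefore refer to the spread among the libraries, part of which may be technical. The acids were compared with their own controls first, and the genes that both moved alike were then sought. The 1 concentration common to both was 1 µM.

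Perfluorinated carboxylic acids carry a carboxylate head group on a chain in which fluorine replaces the hydrogen, much as a fatty acid carries it on a hydrocarbon chain. The longer the chain, the less soluble the acid is in water and the more strongly it binds to proteins, lipids and surfaces, so the nominal concentration of a long-chain acid can lie above what remains dissolved. Raphidocelis subcapitata is a standard species of algal growth inhibition tests. The deposited tables give gene identifiers without names or functions, and genes are therefore described by their identifiers, levels and responses, without roles.

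Expression was measured as counts of reads from the 3' ends of transcripts over 13429 gene identifiers. Library totals ran from 304850 to 504211 counts in the PFTrDA exposure and from 259836 to 934169 in the PFTeDA exposure. With PFTeDA the shallowest group was 32 µM, where the totals were 259836, 268499 and 315493. The common biological coefficient of variation was 0.1495 for PFTrDA and its controls and 0.2122 for PFTeDA and its controls. Replicates differed by more than counting noise, at chi-square values per degree of freedom between 1.73 and 2.71 in the PFTrDA libraries and between 2.02 and 10.99 in the PFTeDA libraries. Libraries were called apart where their median correlation with the other 23 libraries of the acid lay more than 3 median absolute deviations under the median. In the PFTrDA set these were replicates 1 and 2 at 5 µM (0.896 and 0.898) and control replicate 1 (0.889), against a median of 0.9125. In the PFTeDA set they were replicate 3 at 1 µM (0.838) and replicates 2 and 3 at 32 µM (0.857 and 0.847), against a median of 0.9165. Counts of called genes, overlaps and same-sign counts at the highest concentrations, and the calls of the named genes, were also computed without these libraries.

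**Figure D1:**
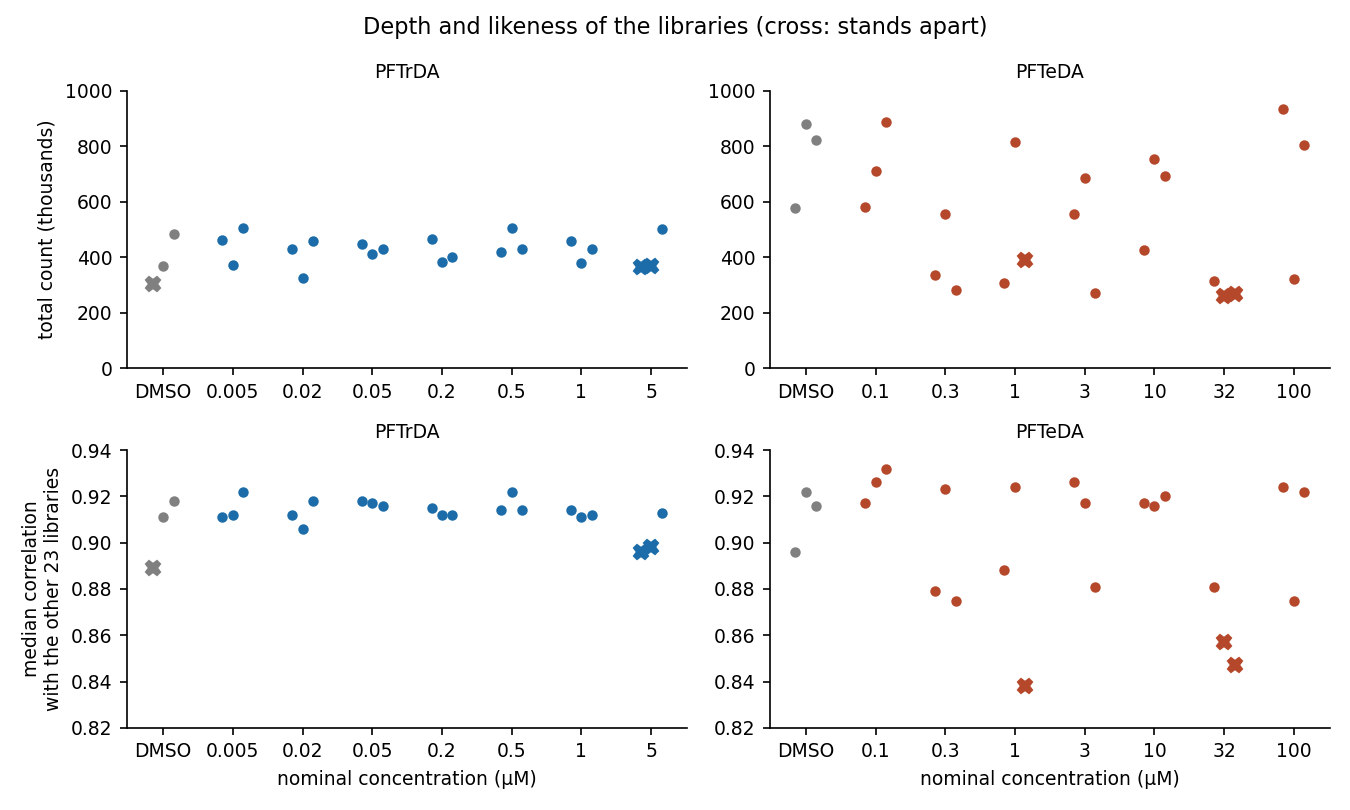
Total counts of each library (top) and the median correlation of each library with the other 23 of its acid (bottom, axis not starting at 0), by nominal concentration in µM, with PFTrDA on the left and PFTeDA on the right and DMSO controls at the low end. Each symbol is a library and crosses mark those that stand apart; the lowest correlation, 0.838, belongs to replicate 3 at 1 µM PFTeDA, and the 32 µM libraries hold at most 315493 counts.

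PFTrDA changed few genes, and mainly at its highest concentration. At 5 µM, 10 genes rose and 5 fell, 15 of the 8231 genes tested (0.182%; edgeR quasi-likelihood test, Benjamini-Hochberg adjusted p under 0.05). The sizes were modest, with a median absolute log2 fold change of 0.65, a largest value of 1.51, and 3 genes past 1 on the log2 scale. At 1 µM 2 genes rose and 1 fell (0.0364%), a count that was 0 or 1 when any 1 of the 3 libraries at 1 µM, or control replicate 1 or 2, was left out. At 0.02 µM 1 gene rose and at 0.05 µM 1 fell (0.0121% each). At 0.005, 0.2 and 0.5 µM the count was 0 by edgeR and by DESeq2, with 371, 377 and 429 genes at an unadjusted p under 0.05. That unadjusted count was 624 at 5 µM (7.58% of the genes tested). The median half-width of the 95% interval of a log2 fold change was 0.7 at 5 µM. For a typical gene an estimated change smaller than this could not be called in 3 libraries at this depth. The interval is not adjusted for the number of genes, so larger changes could go uncalled too.

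The 15 genes were highly expressed. Their median level was 463.6 CPM (counts scaled to a common library size, here with TMM factors), against 51.59 CPM over all genes tested, and all 15 lay above that median. Precision was lowest for genes of low level, and its part in the high level of the 15 was not tested. In each of the 15, the 3 libraries at 5 µM did not overlap with the 3 controls, which held for 11.4% of all genes tested. The count depended on single libraries. It was 5 without replicate 1 at 5 µM, 14 without replicate 2 and 8 without replicate 3. It was 5, 4 and 9 without control replicate 1, 2 and 3. Without the 3 libraries that stand apart, 1 gene was called at 5 µM, which is none of the 15 (edgeR, where the lone library left at that concentration is assumed to vary like the other groups). All 15 had the same sign in that fit, and the median absolute log2 fold change of the 15 genes was 0.64. The 15 were chosen with the libraries of that fit included, so this is no independent check.

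A trend test on the ranked concentrations, in which controls had rank 0, uses all 24 libraries of an acid. For PFTrDA it called 18 genes (0.219%), 16 rising and 2 falling with concentration. The median log2 fold change of the 16 was 0.03, 0.11, 0.15, 0.2, 0.11, 0.49 and 0.71 from 0.005 to 5 µM, so it was at most 0.2 up to 0.5 µM. All 7 medians use the same 3 controls. A single test over the 7 concentrations called 18 genes (0.219%), and 5 µM against 0.005 µM, a contrast without the controls, called 16 (0.194%), 10 higher and 6 lower at 5 µM. Without the libraries that stand apart the trend called 7 genes and 5 against 0.005 µM called 4. Replicate 2 mattered for all 3 tests: without it in every group the trend called 11 genes, the test over all concentrations 5, and 5 against 0.005 µM 3. Without replicate 3 that last contrast called 10.

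With PFTeDA and all libraries in the fit, genes were called at every concentration from 0.3 µM on, and the counts did not follow the concentration. At 100 µM 38 genes rose and 35 fell, 73 of 8380 tested (0.871%). The numbers were 84 up and 77 down at 32 µM (1.92%), 40 up and 141 down at 10 µM (2.16%), and 20 up and 48 down at 3 µM (0.811%). At 1 µM 62 rose and 93 fell (1.85%). With RLE size factors in place of TMM, the split at 1 µM was 83 higher and 80 lower, so the excess of falling genes there depends on the scaling. At 32 µM the split was 95 higher and 67 lower with RLE factors and 65 higher and 82 lower with library totals, so its direction turned with the scaling. At 0.3 µM 1 gene rose and 2 fell (0.0358%), a count that was 0 without control replicate 1 or 3, while DESeq2 called 47. At 0.1 µM edgeR and DESeq2 called 0, with 244 genes at an unadjusted p under 0.05. At 10 µM the excess of falling genes kept its direction under RLE factors (43 higher, 139 lower) and under library totals without scaling factors (44 higher, 131 lower).

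The counts at 1 and 32 µM rested on the libraries that stand apart. Without replicate 3 at 1 µM the count there was 0, while it was 384 without replicate 1 and 348 without replicate 2. At 32 µM it was 48 without replicate 2, 41 without replicate 3 and 182 without replicate 1. With all 3 such libraries left out, the counts were 0, 62, 0, 183, 317, 14 and 147 from 0.1 to 100 µM. The 14 at 32 µM come from 1 library, which is assumed to vary like the other groups. At 10 µM 50 genes were called without replicate 2 and 76 without replicate 3, and at 3 µM 7 without replicate 2. At 100 µM the count was 111 without replicate 1, 45 without replicate 2 and 33 without replicate 3. Its even split rested on single libraries too: it was 28 up and 5 down without replicate 3 and 26 up and 3 down without control replicate 1, against 55 up and 76 down with the replicate number as a block. Control replicate 1 also mattered: without it the counts from 1 to 100 µM were 5, 5, 60, 70 and 29. Without control replicate 2 they were 101 at 1 µM and 91 at 32 µM, and without control replicate 3 those from 1 to 32 µM were 55, 30, 115 and 54. The part of depth in these counts was not tested.

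At 100 µM PFTeDA the median absolute log2 fold change of the called genes was 1.19, the largest 5.86, and 46 of 73 lay past 1. The highest concentrations of the 2 acids differ, so their values stand side by side without a comparison. The 73 genes had a median level of 154.6 CPM against 41.13 CPM over all genes tested. In 72 of them the libraries at 100 µM and the controls did not overlap, against 18.4% of all genes.

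Along the concentrations, the genes that rose at 100 µM had median log2 fold changes of 0.15, 0.21, 0.38, 0.39, 0.63, 0.68 and 1.61 from 0.1 to 100 µM. Those that fell had medians of -0.27, -0.48, -0.7, -0.88, -1.11, -0.81 and -1. Both lists were chosen by their values at 100 µM, so the step of the rising genes to that concentration may be partly set by the choice. These medians share the 3 controls, so a high control value lowers all 7. The trend called 150 genes (1.79%), 59 rising and 91 falling. The 59 had medians of 0.14, 0.25, 0.36, 0.47, 0.62, 0.84 and 1.05 from 0.1 to 100 µM, and the 91 had -0.23, -0.45, -0.68, -0.79, -0.96, -0.86 and -0.94. Without the controls in the fit the trend called 42 genes. The test over all 7 concentrations called 323 genes (3.85%), and 100 against 0.1 µM, again without the controls, called 41 (0.489%), 25 higher and 16 lower at 100 µM. Without the libraries that stand apart the trend called 227 genes. Without replicate 2 in every group the trend called 31 genes, the test over all concentrations 61 and 100 against 0.1 µM 16, and without replicate 3 the trend called 91 and the test over all concentrations 108.

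**Figure D2:**
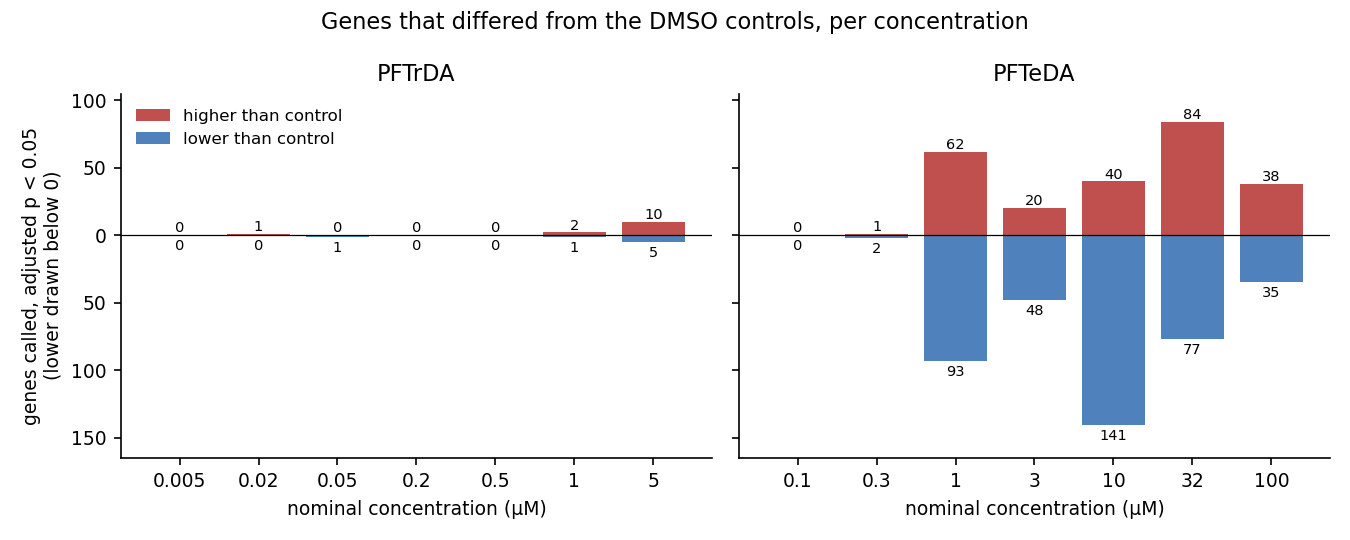
Number of genes that differed from the DMSO controls (edgeR, adjusted p under 0.05) at each nominal concentration in µM, for PFTrDA on the left and PFTeDA on the right, with genes higher than in the controls drawn above 0 and lower ones below. PFTrDA reaches 10 and 5 genes at 5 µM, while PFTeDA reaches 40 and 141 at 10 µM and 38 and 35 at 100 µM.

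A small group of genes moved alike with both acids. Of the 7854 genes tested in both fits, 15 were called with PFTrDA at 5 µM and 70 with PFTeDA at 100 µM. They had 6 genes in common, and all 6 had the same direction, 5 up and 1 down. The 6 are 40% of the PFTrDA list, beside 0.871% of all genes tested that were called with PFTeDA. They are 8.57% of the PFTeDA list, beside 0.182% of all genes tested that were called with PFTrDA. The acids have different controls, so no control value enters both lists. For all 6 genes and with both acids, treated and control libraries did not overlap. This held for 11.4% of all genes tested with PFTrDA and 18.4% with PFTeDA. Among called genes it held for all 15 with PFTrDA and for 72 of 73 with PFTeDA, so it adds little to the calls. The median absolute log2 fold change of the 6 was 0.63 with PFTrDA at 5 µM and 0.88 with PFTeDA at 100 µM.

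By the trend, 5 genes were called with both acids, and all 5 rose with both. They are 27.8% of the PFTrDA list, beside 1.79% of all genes tested that were called with PFTeDA. They are 3.42% of the PFTeDA list, beside 0.219% of all genes tested that were called with PFTrDA. Of these 5, 4 were among the 6 called at the highest concentrations, so the tests together gave 7 genes. By the test over all concentrations 7 genes were called with both acids, 6 of them with the same sign at the highest concentrations and 1 with opposite signs. The overlap at the highest concentrations was not stable to the choice of libraries: it was 2, 0 and 4 genes without replicate 1, 2 and 3 in every group, and 0 without the libraries that stand apart, where 1 gene was called with PFTrDA. In that fit all 6 genes kept their sign, with absolute log2 fold changes of 0.46 to 1.7 with PFTrDA and 0.81 to 3.82 with PFTeDA. This is no independent check. The 6 were chosen with these libraries included, 1 library was left at 5 µM PFTrDA, and none was left out at 100 µM PFTeDA or among its controls. The overlap by the trend was 4, 2 and 5 genes without replicate 1, 2 and 3. Without the libraries that stand apart it was 5 genes, 4 of them the same, out of 7 called with PFTrDA and 219 called with PFTeDA. With the adjusted p threshold at 0.1 the counts alike were 6 at the highest concentrations and 7 by the trend, of which 5 rose and 2 fell.

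**Figure D3:**
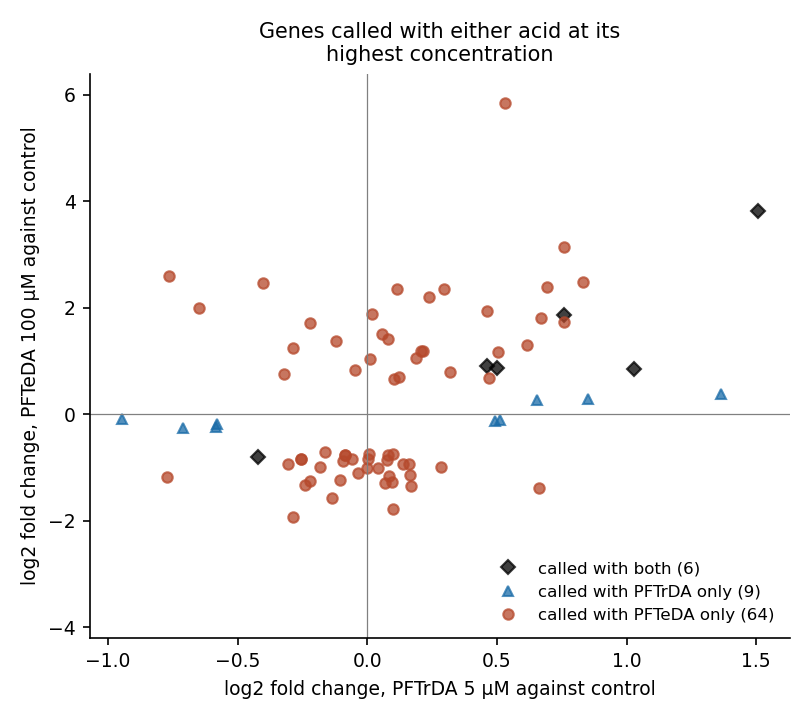
Log2 fold changes against control of the genes called with either acid at its highest concentration, with PFTrDA at 5 µM on the horizontal and PFTeDA at 100 µM on the vertical axis. Diamonds mark the 6 genes called with both, of which 5 lie at the upper right and 1 at the lower left, triangles those called with PFTrDA only (9), and circles those called with PFTeDA only.

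Rsub_06734 had, with either acid, the largest log2 fold change of the 6 genes called with both. With PFTrDA at 5 µM its 3 libraries held 132.3, 157 and 147.4 CPM, against 65.61, 32.67 and 55.66 CPM in the controls. With PFTeDA at 100 µM they held 803.9, 958.4 and 904.6 CPM, against 77.85, 43.18 and 68.02 CPM in the controls. In neither exposure did treated libraries overlap with controls. It averaged 145.6 ± 12.4 CPM at 5 µM PFTrDA and 51.31 ± 16.9 CPM in the controls (SD, n = 3 each), which is 1.51 as log2 fold change, with an SE of 0.28 (edgeR adjusted p = 0.0012). It averaged 889 ± 78.4 CPM at 100 µM PFTeDA and 63.02 ± 17.9 CPM in the controls (SD, n = 3 each), or 3.83 as log2 fold change, with an SE of 0.28 (edgeR adjusted p = 7e-14). In 33 control libraries of 11 exposures the group means ran from 51.31 to 105.7 CPM.

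Along the concentrations, Rsub_06734 lay near its control level in the lower part of both ranges. With PFTrDA its log2 fold change lay between 0.01 and 0.4 up to 0.5 µM, none of them called, and was 1.1 at 1 µM (SE 0.29), where the edgeR adjusted p was 0.35. With PFTeDA it lay between -0.01 and 0.25 up to 3 µM, and was 1.69 at 10 µM (SE 0.28, edgeR adjusted p = 0.00018) and 3.14 at 32 µM (SE 0.28, edgeR adjusted p = 1.1e-10). At 32 µM its libraries held 453.3, 381 and 756.1 CPM, all above every library up to 10 µM. The call at 10 µM was lost in 1 of 16 alternatives, without replicate 2 in every group (1.32, edgeR adjusted p = 0.093), and that at 32 µM in none of 16, over which the adjusted p ran from 3.3e-36 to 4e-07 (edgeR). The PFTrDA call was lost without replicate 2 in every group (log2 fold change 1.21, edgeR adjusted p = 0.33), without control replicate 2 (1.27, edgeR adjusted p = 0.084) and without the libraries that stand apart (1.7, edgeR adjusted p = 0.062), and over its 17 alternatives the adjusted p ran from 0.00023 to 0.33. The PFTeDA call held in all 17, with log2 fold changes between 3.54 and 4.07 and adjusted p up to 1.1e-08.

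Rsub_05036 rose with both acids at their highest concentrations. With PFTrDA at 5 µM it held 543.1, 509 and 487.9 CPM, against 177.1, 296.7 and 270.1 CPM in the controls. With PFTeDA at 100 µM it held 365, 355.9 and 298.2 CPM, against 186.8, 179.6 and 193.1 CPM in the controls. The groups did not overlap with either acid. The log2 fold change was 1.03 with PFTrDA (SE 0.15, edgeR adjusted p = 9.3e-07) and 0.85 with PFTeDA (SE 0.2, edgeR adjusted p = 0.016). With PFTrDA it was also called at 1 µM, at 0.72 (SE 0.15, edgeR adjusted p = 0.036), a call that was lost in 10 of 16 alternatives. Among these were the fit without a filter on low counts (0.72, edgeR adjusted p = 0.052), that without replicate 1 at 1 µM (0.58, edgeR adjusted p = 0.63) and that without control replicate 1 (0.56, edgeR adjusted p = 0.59). Over the 16 the adjusted p ran from 0.0028 to 0.85. With PFTrDA it lay between 0.32 and 0.41 from 0.005 to 0.5 µM with none called. With PFTeDA it was 0.58 at 10 µM (SE 0.2, edgeR adjusted p = 0.13) and -0.31 at 32 µM (SE 0.23, edgeR adjusted p = 0.58), where the libraries that stand apart held 107.8 and 111.7 CPM and the other 215.5 CPM. The trend of Rsub_05036 was called with PFTrDA (edgeR adjusted p = 3.7e-07) and not with PFTeDA (edgeR adjusted p = 0.14).

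The PFTrDA call of Rsub_05036 was lost in 1 of 17 alternatives, without the libraries that stand apart (0.79, edgeR adjusted p = 0.13). The PFTeDA call was lost in 7 of 17, each of which left out libraries, with log2 fold changes between 0.79 and 0.89. These were without replicate 1 or 2 in every group (edgeR adjusted p = 0.12 and 0.43), without replicate 1 or 2 at 100 µM (edgeR adjusted p = 0.054 and 0.074), and without control replicate 1, 2 or 3 (edgeR adjusted p = 0.092, 0.1 and 0.054). Over all 17 it ran from 0.0021 to 0.43. The mean of this gene in the 11 control groups ran from 75.17 to 282.6 CPM, so its control level in the PFTrDA exposure, 248 CPM, and that in the PFTeDA exposure, 186.5 CPM, lay within the range of the series.

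Of the other 3 genes that rose with both acids at the highest concentrations, 1 stood out by its size with PFTeDA. Its mean was 497 CPM at 5 µM PFTrDA and 290 CPM in the controls, 0.76 on the log2 scale (SE 0.16, edgeR adjusted p = 0.0045). It was 788 CPM at 100 µM PFTeDA and 218 CPM in the controls, 1.86 on the log2 scale (SE 0.22, edgeR adjusted p = 5.9e-09). These means are scaled by TMM factors. The remaining 2 were highly expressed genes with log2 fold changes of 0.5 and 0.46 with PFTrDA and of 0.86 and 0.91 with PFTeDA, with control means of 1410 and 746 CPM in the PFTrDA exposure and 1310 and 490 CPM in the PFTeDA exposure.

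Rsub_10862 was the gene that fell with both acids. With PFTrDA at 5 µM it held 1773, 1928 and 1593 CPM, against 2598, 2436 and 2051 CPM in the controls. With PFTeDA at 100 µM it held 2535, 2313 and 2269 CPM, against 4215, 4022 and 4180 CPM in the controls. Treated libraries lay below every control in both exposures. The log2 fold change was -0.42 with PFTrDA (SE 0.1, edgeR adjusted p = 0.025) and -0.81 with PFTeDA (SE 0.17, edgeR adjusted p = 0.0024). With PFTrDA the log2 fold change was already -0.43 at 0.02 µM (SE 0.1, edgeR adjusted p = 0.057) and lay between -0.35 and -0.27 from 0.05 to 1 µM, and the trend was not called (edgeR adjusted p = 0.066).

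The PFTrDA call of Rsub_10862 was lost in 9 of 17 alternatives, among them without replicate 1 or 3 at 5 µM (edgeR adjusted p = 0.12 and 0.33) and without control replicate 1 or 2 (edgeR adjusted p = 0.28 and 0.18), with log2 fold changes between -0.49 and -0.34 where it was lost. The PFTeDA call was lost in 2 of 17, without replicate 1 or 2 in every group (edgeR adjusted p = 0.092 and 0.11). Over the 17 alternatives the adjusted p ran from 0.0013 to 0.35 with PFTrDA and from 1.3e-05 to 0.11 with PFTeDA. Its mean in the PFTeDA controls, 4139 CPM, was the highest of the 11 control groups, whose lowest was 1952 CPM. With PFTeDA it was called at 1 µM (-0.63, SE 0.16, edgeR adjusted p = 0.026), where the libraries held 2906, 3694 and 1458 CPM and the lowest was the one that stands apart, and at 32 µM (-0.86, SE 0.17, edgeR adjusted p = 0.0011). The call at 1 µM was lost in 7 of 16 alternatives, among them without the library that stands apart (-0.33, edgeR adjusted p = 0.54) and without any 1 of the controls (edgeR adjusted p between 0.055 and 0.16). Over the 16 the adjusted p ran from 0.00049 to 0.73. The call at 32 µM was lost in 2 of 16, without replicate 1 or 2 in every group (edgeR adjusted p = 0.072 and 0.08).

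Rsub_12740 fell with PFTeDA and was not called with PFTrDA. With PFTeDA at 100 µM it held 68.51, 74.92 and 52.19 CPM, against 216.3, 96.59 and 125.1 CPM in the controls, -1.18 on the log2 scale (SE 0.27, edgeR adjusted p = 0.01). With PFTrDA at 5 µM it held 74.43, 51.44 and 45.81 CPM, against 88.57, 100.7 and 98.95 CPM in the controls, a log2 fold change of -0.77 (95% interval -1.33 to -0.22, edgeR adjusted p = 0.48). Treated libraries lay below the controls in both exposures. Treated and control libraries did not overlap in 11.4% of all genes tested with PFTrDA and 18.4% with PFTeDA. Rsub_12740 was also chosen for its same sign with both acids, so the shared direction follows from the choice. The PFTeDA call was lost in 5 of 17 alternatives, among them without control replicate 1, the highest of its controls (-0.79, edgeR adjusted p = 0.38), and without replicate 3 at 100 µM (-1.02, edgeR adjusted p = 0.18). The range of the adjusted p was 0.0026 to 0.38. Control means of this gene ran from 45.17 to 460.1 CPM over the 11 exposures, the widest range of the 4 named genes relative to the lowest mean.

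**Figure D4:**
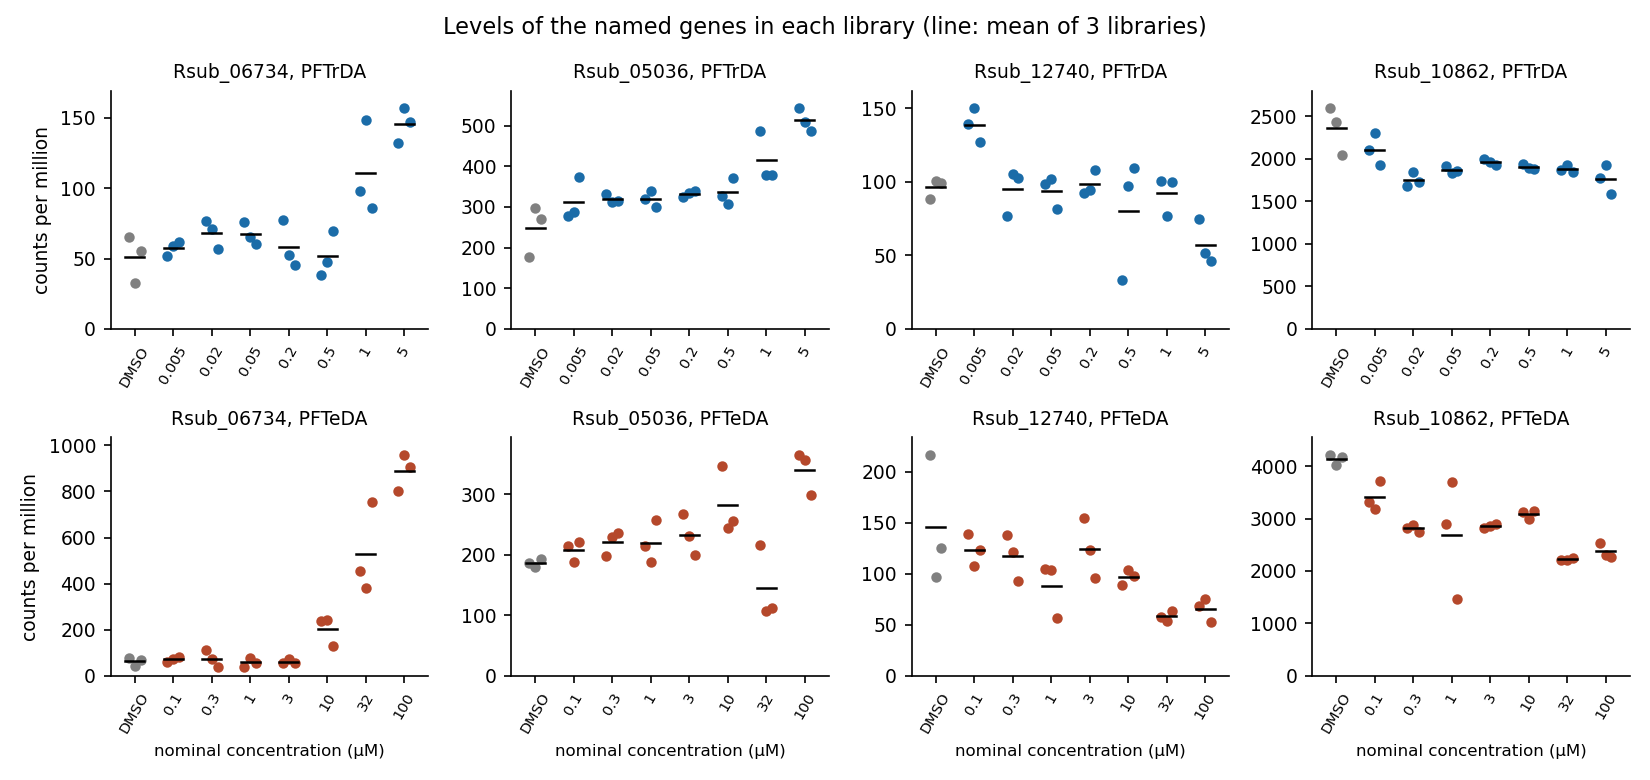
Level in CPM, scaled to library totals, in each library, by nominal concentration in µM with the DMSO controls in grey at the low end, for Rsub_06734, Rsub_05036, Rsub_12740 and Rsub_10862, with PFTrDA in the upper and PFTeDA in the lower row and a line at the mean of 3 libraries. Rsub_06734 lies above all 3 controls in every library at 1 and 5 µM PFTrDA and from 10 to 100 µM PFTeDA, with a mean of 889 CPM at 100 µM.

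The list of each acid was also read in the libraries of the other, with the 6 genes called with both left in. The 15 genes of PFTrDA at 5 µM had the same sign with PFTeDA at 100 µM in 13 cases (86.7%), against 51% of all 7854 genes. Of the 15, 6 (40%) also had an unadjusted p under 0.05 there (edgeR), against 5.81% of all genes. These 6 are the genes called with both acids, and no other gene of the list had both that sign and such a p-value. In the single PFTeDA libraries at 100 µM, set against the mean of the controls, 14, 11 and 11 of the 15 had that sign. The shares of all genes were 52.3%, 51% and 50.5%. In the fits without the libraries that stand apart, 13 of the same 15 had that sign (86.7%), against 50.6% of all 8566 genes of those fits. No library at 100 µM PFTeDA or among its controls was left out there. At lower PFTeDA concentrations the count with the same sign was 9, 8, 6, 6, 10 and 8 of 15 from 0.1 to 32 µM, shares of 40% to 66.7%, against 49.2% to 50.6% of all genes. The median log2 fold change of the 10 rising genes was 0.62 at 100 µM PFTeDA, and that of the 5 falling genes -0.25.

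In the other direction, 45 of the 70 genes of PFTeDA at 100 µM (64.3%) had the same sign with PFTrDA at 5 µM, against 51% of all genes, and 14 (20%) had in addition an unadjusted p under 0.05, against 4.46%. Both counts include the 6 genes called with both acids. In the single PFTrDA libraries at 5 µM, 53, 41 and 41 of the 70 had that sign, against 51.3%, 51% and 49.8% of all genes. Of the 70, 42 had it in the fits without the libraries that stand apart (60%), against 50.6% of all 8566 genes, 28 of the 36 rising and 14 of the 34 falling genes. From 0.005 to 1 µM, where PFTrDA changed at most 3 genes, the count in the full fit was 48, 48, 35, 36, 43 and 44 of 70. These are shares of 50% to 68.6%, against 49.9% to 52.6% of all genes. The count was thus higher at 0.005 and 0.02 µM than at 5 µM, and lower from 0.05 to 1 µM. These counts share the PFTrDA controls. At 5 µM the excess lay with the rising genes. Of 36 rising genes 28 were higher with PFTrDA, with a median log2 fold change of 0.23, whereas of 34 falling genes 17 were lower, with a median of -0.02. The shares are descriptions, since genes of one list are not independent of each other.

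Both acids were set beside the shorter acids PFPeA (5 carbons), PFHpA (7 carbons) and PFOA (8 carbons) at 100 µM. PFPeA and PFHpA shared 1 exposure and its controls, PFOA had another, and none of these controls was shared with PFTrDA or PFTeDA. PFHpA had 2 libraries at 100 µM and the others 3. Of the 15 genes of PFTrDA, 1 was called in the same direction with PFPeA (0.826% of all genes were called there), 1 with PFHpA (0.156%) and 7 with PFOA (2.47%). The sign was that of PFTrDA in 11 of the 15 with PFPeA (73.3%), 12 with PFHpA (80%) and 13 with PFOA (86.7%), against 51.4% to 52.3% of all genes. The share of 86.7% with PFTeDA was thus also found with PFOA. Of the genes of PFTeDA at 100 µM, none of 71 was called with PFPeA or PFHpA by edgeR. There 22 (31%) and 28 (39.4%) had the same sign, fewer than the 45.9% and 45.8% of all genes. With PFOA 7 of 72 were called in the same direction and 1 in the opposite direction, and 43 had the same sign (59.7%, against 48.6% of all genes). With PFNA, which shares no control with PFTeDA, 15 of 71 were called in the same direction (21.1%, where 1.23% of all genes were called). The same sign was found in 51 of the 71 (71.8%, against 53.1% of all genes). With PFUdA, which shares no control with PFTrDA, 8 of the 15 genes of PFTrDA were called in the same direction (53.3%, where 2.58% of all genes were called). There 13 had the same sign (86.7%, against 50.9% of all genes). Of the 6 genes called with both acids, none was called with PFPeA or PFHpA and 2 were called with PFOA. The median log2 fold change of the 6, counted as positive in the direction they took with both acids, was 0.04 with PFPeA, 0.07 with PFHpA, 0.43 with PFOA, 0.92 with PFNA and 0.99 with PFUdA. PFNA shares its controls with PFTrDA and PFUdA with PFTeDA, so these 2 medians use control values that also entered the choice of the 6. Beside them stand the 0.63 with PFTrDA at 5 µM and the 0.88 with PFTeDA at 100 µM.

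The named genes were read at 100 µM of the same acids. Rsub_06734 had log2 fold changes of -0.04 with PFPeA, -0.31 with PFHpA and 0.31 with PFOA, with edgeR adjusted p between 0.45 and 0.97. It had 2.96 with PFNA (SE 0.26, edgeR adjusted p = 3.4e-16) and 3.97 with PFUdA (SE 0.19, edgeR adjusted p = 2.2e-23). Rsub_05036 had 0.03, 0.04 and 0.55 with PFPeA, PFHpA and PFOA, none called, 1.18 with PFNA (SE 0.18, edgeR adjusted p = 1e-06) and 0.45 with PFUdA (SE 0.22, edgeR adjusted p = 0.36). Rsub_10862 had -0.05, -0.11 and 0.21 with the 3 shorter acids, none called, and was called with PFNA at -0.48 and with PFUdA at -0.73. Rsub_12740 had -0.48, -0.36 and -1.62 with them, none called, -1.95 with PFNA (SE 0.4, edgeR adjusted p = 0.0011) and -1.39 with PFUdA (SE 0.45, edgeR adjusted p = 0.12). PFNA shares its controls with PFTrDA and PFUdA with PFTeDA, and differences between these acids at 100 µM were tested only for PFTeDA against PFUdA and PFNA.

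Acids were compared at matched concentrations in 17 contrasts over 90 libraries of PFTrDA, PFTeDA, PFNA and PFUdA with both control groups, with p-values adjusted over all 8967 genes and all 17 contrasts. Within an exposure the levels were contrasted directly. Between exposures the changes against each acid's own controls were contrasted, which is less precise, with median 95% half-widths of 1.05 to 1.16 on the log2 scale against 0.7 to 0.84 within an exposure.

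PFTrDA and PFTeDA, which differ by 1 carbon, differed in their change at 1 µM in 41 genes (0.457%), 19 with a higher change with PFTrDA and 22 with a lower one (edgeR, adjusted over the family). The count rested on replicate 3 at 1 µM PFTeDA, the library with the lowest correlation. Without it 8 genes differed, while 96 differed without replicate 1 and 79 without replicate 2 of that group. The count was 17 without replicate 3 at 1 µM PFTrDA, 19 without PFTrDA control replicate 1, 17 without PFTeDA control replicate 1, and 1 without all libraries that stand apart. Against their own controls, 3 genes were called at 1 µM with PFTrDA and 154 with PFTeDA among the genes of both fits, and no gene was called with both by edgeR. Of the 154, 74 had the same sign with PFTrDA (48.1%, against 49.5% of all genes), and 2 of them had an unadjusted p under 0.05. For the named genes at 1 µM, Rsub_06734 differed by 1.07 (PFTrDA minus PFTeDA, 95% interval 0.3 to 1.84, edgeR adjusted p = 0.25) and Rsub_05036 by 0.48 (-0.08 to 1.03, edgeR adjusted p = 0.6), so neither passed the test and a difference of about 1 is within both intervals.

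PFTrDA differed at 1 µM from PFUdA in 9 genes (0.1%), 2 higher and 7 lower in change with PFTrDA, and from PFNA of the same exposure in 2 genes (0.0223%), both lower with PFTrDA. The first count was 5 without PFTrDA control replicate 3, and the second 1 without replicate 2 at 1 µM PFTrDA. Adjusted within each contrast instead of over all 17, the counts were 5 and 0 (edgeR). Of all genes, 7.14% and 4.1% had an unadjusted p under 0.05 in these 2 contrasts (edgeR). With the median half-widths of 1.05 and 0.76, an estimated difference under these sizes could not be called for a typical gene. The half-widths are not adjusted for the number of tests, so larger differences could go uncalled too.

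PFTeDA and PFUdA were contrasted within their exposure at all 7 concentrations. From 0.1 to 100 µM they differed in 24, 9, 172, 89, 38, 50 and 15 genes, which is 0.268%, 0.1%, 1.92%, 0.993%, 0.424%, 0.558% and 0.167% of the genes tested. With all libraries in the fit, most were lower with PFTeDA at 1 µM (131 of 172) and at 10 µM (30 of 38), while at 100 µM 8 were higher and 7 lower. Without the libraries that stand apart 35 differed at 1 µM and 13 at 32 µM, the second with 1 PFTeDA library, assumed to vary like the other groups. Without replicate 3 at 1 µM PFTeDA alone 44 differed there, and without replicate 1 there 278. At 0.1 µM 10 differed without replicate 1 and 15 without replicate 2, at 0.3 µM 2, 26 and 3 without replicate 1, 2 and 3, at 3 µM 45 without replicate 1, and at 10 µM 24 without replicate 2, in each case of PFTeDA. Rsub_06734, named by the rule for genes called with both acids, was among the genes that differed. At 10 µM it held 239, 242 and 128.4 CPM with PFTeDA, against 890.5, 913.8 and 786.1 CPM with PFUdA. At 3 µM it held 54.07, 74.54 and 55.44 CPM with PFTeDA, against 305.5, 297.1 and 297.3 CPM with PFUdA. The groups did not overlap at either concentration. The difference, PFTeDA minus PFUdA, was -2.21 at 3 µM (SE 0.24, edgeR adjusted p = 9.2e-12) and -2.08 at 10 µM (SE 0.2, edgeR adjusted p = 2.7e-14). At 32 µM it was -0.61 (95% interval -1 to -0.23, edgeR adjusted p = 0.14) and at 100 µM -0.15 (-0.51 to 0.22, edgeR adjusted p = 0.87). This gene thus stood higher with the 11-carbon acid than with the 14-carbon acid at 3 and 10 µM, and at 100 µM the interval allows a difference of up to 0.51. The differences at 3 and 10 µM held in all 13 alternatives, between -2.42 and -2.08 at 3 µM and between -2.24 and -1.83 at 10 µM.

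PFTeDA and PFNA, from different exposures, differed in their changes in 1, 7, 56, 36, 76, 51 and 39 genes from 0.1 to 100 µM (0.0112%, 0.0781%, 0.625%, 0.401%, 0.848%, 0.569% and 0.435%). At 10 µM 63 of 76 had a lower change with PFTeDA, and at 100 µM 20 were higher and 19 lower. Without the libraries that stand apart the counts were 0, 3, 4, 16, 45, 9 and 29, where the 9 at 32 µM again rest on 1 PFTeDA library. Among single PFTeDA libraries, the count at 1 µM was 114, 122 and 14 without replicate 1, 2 and 3, that at 3 µM was 13 without replicate 2, and that at 10 µM was 43 without replicate 2 and 49 without replicate 3. Without PFTeDA control replicate 1 the counts were 24, 14, 38 and 23 at 1, 3, 10 and 100 µM, and without PFTrDA control replicate 1 they were 32, 18 and 44 at 1, 3 and 10 µM. At 32 µM 33 differed without PFTrDA control replicate 3. At 0.1 µM the count was 0 or 2 without each of several single libraries, and at 0.3 µM it was 2 without PFTrDA control replicate 1 and 4 without PFTeDA control replicate 3. Rsub_06734 changed more with PFTeDA than with PFNA at 32 µM, by 1.5 (SE 0.37, edgeR adjusted p = 0.026). That call was lost in 7 of 19 alternatives, over which the difference ran from 1.04 to 1.79 and the adjusted p from 0.0092 to 0.52. It was lost without replicate 3 at 32 µM PFTeDA (1.12, edgeR adjusted p = 0.18), without PFTrDA control replicate 1 or 3 (1.32 and 1.42, edgeR adjusted p = 0.14 and 0.12), without PFTeDA control replicate 2 (1.27, edgeR adjusted p = 0.12) and without the libraries that stand apart (1.04, edgeR adjusted p = 0.44). At 100 µM the difference was 0.85 (95% interval 0.15 to 1.55, edgeR adjusted p = 0.36), which did not pass.

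**Figure D5:**
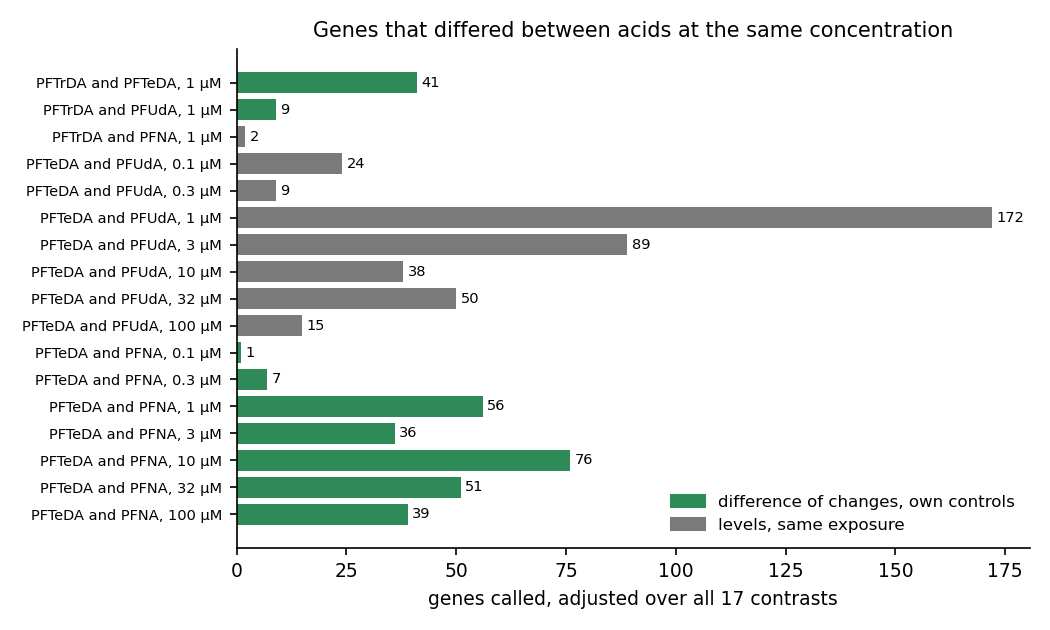
Number of genes that differed between acids at the same nominal concentration (edgeR, adjusted over 17 contrasts), with each contrast named on the vertical axis. Green bars contrast changes against each acid's own controls and grey bars contrast levels within an exposure; the longest bar, 172 genes, is PFTeDA against PFUdA at 1 µM, and PFTrDA against PFTeDA at 1 µM has 41.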

How the data were processed

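The deposited count tables hold raw read counts per gene identifier, one table for each of 22 compounds, made by the authors from 3' end libraries. The submitters' processing notes name featureCounts 2.0.6, fastp 0.23.2, SAMtools 1.15.1 and STAR 2.7.10a. Their settings, the genome build and the handling of molecular identifiers were not given in the sources used here. For each acid with its controls (24 libraries), genes were filtered with filterByExpr, scaled by TMM and tested with the quasi-likelihood test of edgeR 4.0.16 in R 4.3.3 (robust fit), with Benjamini-Hochberg adjustment over all genes tested and a threshold of 0.05. Matched concentrations were contrasted in 1 fit of 90 libraries, adjusted over 17 contrasts. DESeq2 1.42.0 and the other settings were alternatives, and the scripts were checked on simulated counts. CPM of the 4 named genes are scaled to the library total; other CPM use TMM factors. Only 2 rising and 2 falling identifiers are named: genes with a mean of at least 10 counts, called with both acids by the trend or the test over all concentrations and of the same sign at both highest concentrations, ordered by the smaller absolute log2 fold change. Where fewer than 2 were left, as for falling genes, the place was filled with genes called with 1 acid at its highest concentration and of the same sign with the other, in the same order. The members, the lists and this rule were chosen with earlier results of these data known. Totals of 259836 to 934169 counts limit precision most for genes of low level. Every column was mapped to a sample by its label.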

Additional observations from a re-analysis of the deposited data

Results flagged for a closer look

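Changes against each acid's own controls differed between acids of different exposures at the same nominal concentration, by a test of the difference itself (edgeR, adjusted over 17 contrasts). Between PFTrDA and PFTeDA at 1 µM 41 of 8967 genes differed (0.457%), and between PFTrDA and PFUdA at 1 µM 9 (0.1%). The 41 were 8 without replicate 3 at 1 µM PFTeDA, the library with the lowest correlation. Between PFTeDA and PFNA the numbers from 0.1 to 100 µM were 1, 7, 56, 36, 76, 51 and 39, shares of 0.0112% to 0.848%. These counts also depended on single libraries. Each count mixes the acids with their exposures' own controls, and the part of the exposure cannot be told apart from that of the acid.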

How the results depend on the processing

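No named gene changed direction in any alternative. By the trend, the 5 genes moved alike by both acids were the same 5 under RLE factors, library totals, no filter and a fit without the robust option. The causes of the shifts below were not tested. The alternative without the libraries that stand apart, with the same-sign counts read in it, and those that leave out a single treated library, were chosen after seeing the data.

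RLE factors gave 2 genes at 0.02 µM PFTrDA. Without a filter on low counts 0 genes were called at 1 µM PFTrDA, and 33, 246, 135 and 122 at 0.3, 1, 3 and 100 µM PFTeDA, with 580 at any concentration. The differences were then 69 for PFTrDA and PFTeDA, 28 for PFTrDA and PFUdA and 9 for PFTrDA and PFNA, 74, 30, 87 and 31 for PFTeDA and PFUdA at 0.1, 0.3, 32 and 100 µM, and 5, 25, 95, 67, 95 and 72 for PFTeDA and PFNA at 0.1, 0.3, 1, 3, 32 and 100 µM. The fit without the robust option called 0 genes at 1 µM and 11 at any concentration with PFTrDA, and 7 at 0.3 µM PFTeDA. The fit with both compounds of an exposure called 0, 0 and 7 genes at 0.02, 1 and 5 µM PFTrDA, and 259 and 114 at 1 and 3 µM PFTeDA. DESeq2 gave a trend in 32 genes with PFTrDA, and called 47, 245 and 159 at 0.3, 1 and 3 µM PFTeDA. The trend without controls called 30 genes with PFTrDA and 42 with PFTeDA, and on the log10 concentration 42 with PFTeDA. With adjustment within each contrast the differences were 5 for PFTrDA and PFUdA and 0 for PFTrDA and PFNA (edgeR; 368 genes at an unadjusted p under 0.05), 12, 0, 493 and 150 for PFTeDA and PFUdA at 0.1, 0.3, 1 and 3 µM, and 0 and 1 for PFTeDA and PFNA at 0.1 and 0.3 µM.

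Without the libraries that stand apart PFTrDA had 2, 0, 1, 0 and 1 genes at 0.02, 0.05, 0.2, 1 and 5 µM, 7 by the trend and 4 for 5 against 0.005 µM. PFTeDA had 62, 0, 183, 317, 14 and 147 from 0.3 to 100 µM and 227 by the trend. Genes alike were 0 at the highest and 3 over any concentration. Differences were 1 for PFTrDA and PFTeDA, 35 and 13 for PFTeDA and PFUdA at 1 and 32 µM, and 0, 3, 4, 16, 45 and 9 for PFTeDA and PFNA from 0.1 to 32 µM.

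The main fits did not use the replicate number. Deviations from the group means had mean correlations of 0.003 to 0.063 between same-numbered libraries and of -0.033 to -0.001 between differently numbered ones. The correlations were small, but 17 of 24 PFTrDA and 19 of 24 PFTeDA libraries correlated best with their own number. For PFTrDA this held for 8 of 8 with numbers 1 and 3 and for 1 of 8 with number 2. Part of the spread thus followed the number. With the replicate block PFTrDA had 1, 10, 5 and 5 genes at 0.005, 0.02, 0.05 and 1 µM, 29 by the trend, 41 at any concentration and 27 for 5 against 0.005 µM. PFTeDA had 1, 37, 257, 167 and 131 at 0.1, 0.3, 1, 3 and 100 µM, 519 at any concentration and 63 for 100 against 0.1 µM. With the replicate block 13 genes were alike over any concentration, and the differences were 67 for PFTrDA and PFTeDA, 17 for PFTrDA and PFUdA, 60, 17, 137 and 27 for PFTeDA and PFUdA at 0.1, 0.3, 3 and 100 µM, and 18, 96, 58, 115, 84 and 64 for PFTeDA and PFNA from 0.3 to 100 µM.

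Leaving out a replicate number or a single library gave these ranges. PFTrDA had 0 to 3, 0 to 3, 0 to 1, 0 to 4 and 1 to 14 genes at 0.02, 0.05, 0.5, 1 and 5 µM, 11 to 21 by the trend, 5 to 18 at any concentration and 3 to 14 for 5 against 0.005 µM. PFTeDA had 0 to 5, 0 to 384, 0 to 66, 16 to 126, 17 to 182 and 24 to 111 from 0.3 to 100 µM, 31 to 116 by the trend, 61 to 282 at any concentration and 16 to 38 for 100 against 0.1 µM. Genes alike were 0 to 4 at the highest concentration, 2 to 5 by the trend and 1 to 5 over any concentration. Without 1 replicate number, the share with the same sign in the other acid was 71.4% to 100% for the PFTrDA list and 61.1% to 81.8% for the PFTeDA list. The PFTrDA list was then short. The 100% is without replicate 2, where 1 gene was called at 5 µM. The 71.4% is without replicate 1, where 7 genes were called. In the full fits 51% of all genes had the same sign. Differences were 1 to 96 for PFTrDA and PFTeDA, 3 to 11 for PFTrDA and PFUdA and 0 to 8 for PFTrDA and PFNA. For PFTeDA and PFUdA they were 0 to 27, 2 to 26, 7 to 278, 10 to 106, 10 to 34, 7 to 66 and 5 to 20 from 0.1 to 100 µM, and for PFTeDA and PFNA 0 to 2, 1 to 8, 10 to 122, 5 to 41, 15 to 80, 11 to 68 and 8 to 55.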
